A study of Mus musculus with 2 samples.

Results

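Progenitor exhausted-like CD8 T cells are described here as single-cell barcodes chosen by transcripts. A barcode entered if it had at least 500 detected genes, under 10% of UMIs (unique transcript molecules) from mitochondrial genes, and at least 1 UMI of Cd3d, Cd3e or Cd3g and of Cd8a or Cd8b1. It also needed at least 1 UMI each of Pdcd1, Slamf6 and Tcf7 and no UMI of Havcr2. This progenitor gate found 537 barcodes among 15065 CD8 T barcodes and 17977 deposited barcodes. There were 188 in the NK-depleted library and 349 in the control library. The gate used the measured values of these genes, so their levels are given as a description only.

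Both libraries hold live CD8+ T cells sorted by flow cytometry from tumours of the mouse colon carcinoma line MC38. The tumours grew for 9 days in wild-type mice and were digested with collagenases I and IV. The NK-depleted library came from mice given a-NK1.1, an antibody against a surface receptor of natural killer (NK) cells, which some T cells also carry. PBS is the labelled treatment of the control library, although Iso stands in its name. The labels do not say how many mice were pooled. Since each group is 1 library, no spread between replicates can be had and no test was run. The intervals below are exact 95% intervals that cover counting error only.

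Chronically stimulated CD8 T cells include a progenitor pool that keeps the transcription factor TCF-1, encoded by Tcf7, and the surface receptor Ly108, encoded by Slamf6, together with the inhibitory receptor PD-1, encoded by Pdcd1. In tumours this pool renews itself and gives rise to terminally exhausted cells. Those cells carry the inhibitory receptor TIM-3, encoded by Havcr2, and have lost TCF-1. Progenitor-gated barcodes were therefore set beside Pdcd1+Havcr2+ CD8 T barcodes. They were also set beside the class most like them, Pdcd1- Slamf6+Tcf7+ barcodes, which passed the same filters with no UMI of Pdcd1 or Havcr2.

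Progenitor-gated barcodes had a median of 14966 UMIs in the NK-depleted library and 15300 in the control library. Pdcd1+Havcr2+ barcodes were deeper, with medians of 17201 UMIs in the NK-depleted library and 18909 in the control library. Pdcd1- Slamf6+Tcf7+ barcodes were shallower, with medians of 9226 and 9817 UMIs. Levels are therefore given as CPM, the summed UMIs of a gene in a class per 1000000 UMIs of that class. Of 391 barcode sequences found in both libraries, 0 were progenitor-gated in the NK-depleted library and 3 in the control library. The doublet caller marked 0 barcodes in the NK-depleted library and 1 in the control library, a share at which the caller cannot be taken to have worked. Doublets were therefore left in. High doublet scores were those above a cut set for the top 8% of kept barcodes in each library. They were given to 652 NK-depleted and 485 control barcodes. Such scores were held by 13.83% of NK-depleted and 14.04% of control progenitor-gated barcodes. The shares were lower in Pdcd1- Slamf6+Tcf7+ barcodes, at 2.47% in the NK-depleted and 2.30% in the control library. In Pdcd1+Havcr2+ barcodes they were 12.94% in the NK-depleted and 11.51% in the control library. Erythroid markers were at 0 in progenitor-gated barcodes of both libraries, and the 6 fibroblast markers summed to 0.320 CPM in the NK-depleted library and 0 in the control library. Plasmacytoid dendritic cell transcripts sat in a few barcodes. Siglech, a defining gene of those cells, had 28 of its 29 UMIs in 2 NK-depleted progenitor-gated barcodes and 238 of its 239 UMIs in 5 control ones. Trdc, the gamma delta T cell receptor constant gene, had 2 or more UMIs in 4 NK-depleted and 2 control progenitor-gated barcodes.

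Progenitor-gated barcodes were a smaller share of CD8 T barcodes after NK depletion. They made up 188 of 8164 in the NK-depleted library, 2.30% (1.99 to 2.65), and 349 of 6901 in the control library, 5.06% (4.55 to 5.60). The ratio was 0.455 (0.379 to 0.545). Because a barcode with more UMIs passes a gate more easily, each barcode was also thinned to 5400 UMIs before gating. The thinned share was 53 of 7408, 0.715% (0.536 to 0.935), in the NK-depleted library and 119 of 6277, 1.90% (1.57 to 2.26), in the control library. The compared classes did not show the same size of difference. Pdcd1- Slamf6+Tcf7+ barcodes were 5.46% of NK-depleted and 5.68% of control CD8 T barcodes, and Pdcd1+Havcr2+ barcodes were 40.4% of NK-depleted and 34.6% of control CD8 T barcodes.

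The genes of the gate differed in how they bore on this share. Among Pdcd1+ Havcr2- CD8 T barcodes, Slamf6 had a UMI in 20.8% (18.8 to 22.9) of the NK-depleted library and 34.5% (32.5 to 36.5) of the control library. Tcf7 had one in 31.9% (29.6 to 34.3) of the NK-depleted library and 27.2% (25.4 to 29.1) of the control library. After thinning, the shares were 9.42% in NK-depleted and 19.7% in control barcodes for Slamf6, and 14.7% in NK-depleted and 15.2% in control barcodes for Tcf7. The Slamf6 share was thus lower after NK depletion at either depth, while the thinned Tcf7 share was level. Over all CD8 T barcodes, Slamf6 had a UMI in 18.2% of the NK-depleted library and 29.9% of the control library. As a guide to free RNA, MHC class II barcodes without a Cd3 UMI (18 in the NK-depleted and 41 in the control library, with medians of 9533 and 8653 UMIs) had a Slamf6 UMI in 11.1% of NK-depleted and 14.6% of control barcodes. Tcf7 had a UMI in 5.56% of NK-depleted and 34.1% of control MHC class II barcodes, and the control value lay above the share among control Pdcd1+ Havcr2- barcodes.

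**Figure D1:**
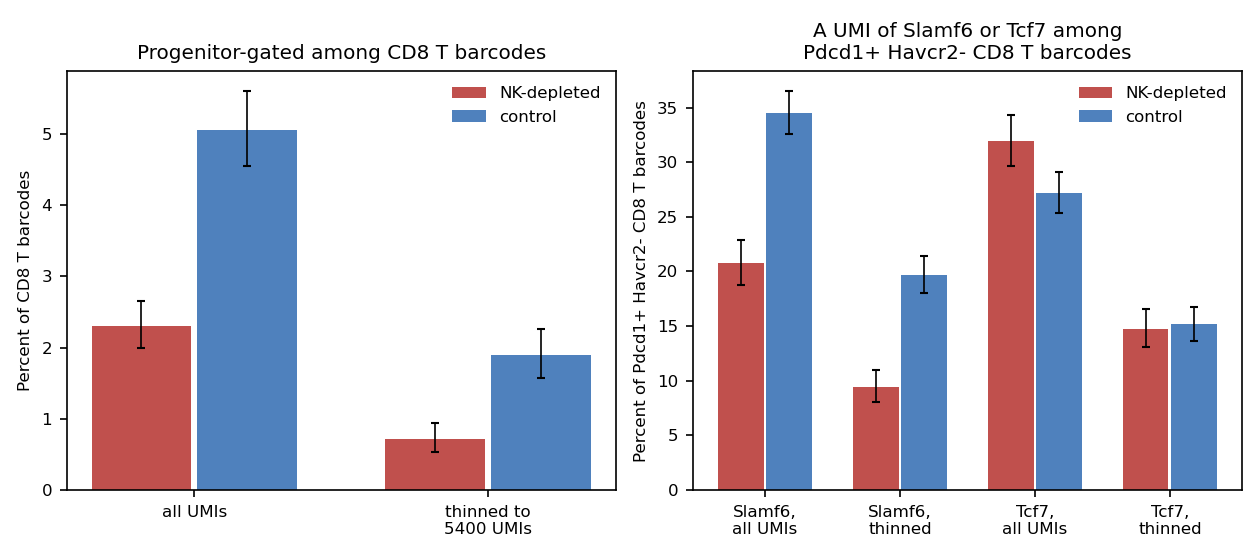
Percent of CD8 T barcodes passing the progenitor gate (left) and of Pdcd1+ Havcr2- CD8 T barcodes with a UMI of Slamf6 or Tcf7 (right), with all UMIs and thinned to 5400 UMIs, NK-depleted library in red, control library in blue, with exact 95% intervals. The gate share was 2.30% in the NK-depleted and 5.06% in the control library, and the Slamf6 share was also lower in the NK-depleted library.

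Most barcodes passed the gate on few UMIs. Tcf7 had exactly 1 UMI in 52 of 188 NK-depleted and 113 of 349 control progenitor-gated barcodes. At least 2 UMIs of each of Pdcd1, Slamf6 and Tcf7 were present in 33 NK-depleted and 96 control barcodes. Just inside the gate, barcodes at 1 Tcf7 UMI had Lef1 at 80.9 CPM in the NK-depleted library and 49.7 CPM in the control library. Just outside it, barcodes missing only Tcf7 had Lef1 at 45.5 CPM in the 140 NK-depleted and 41.8 CPM in the 433 control barcodes. Those missing only Slamf6 had Lef1 at 74.2 CPM in the 316 NK-depleted and 84.3 CPM in the 268 control barcodes. Their Id3 stood at 12.6 CPM in the NK-depleted and 10.5 CPM in the control library. Barcodes barred by a single Havcr2 UMI numbered 42 in the NK-depleted and 47 in the control library, with Gzmb at 1248 CPM in NK-depleted and 1419 CPM in control barcodes. Those barred by 2 or more Havcr2 UMIs had medians of 34362 UMIs in the NK-depleted and 37920 UMIs in the control library. The part of depth in the absence of Havcr2 was not tested.

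The gate genes lie on chromosome 1 (Pdcd1, chr1:94038305-94052553, minus strand; Slamf6, chr1:171917515-171953170, plus strand) and chromosome 11 (Tcf7, chr11:52252371-52283014, minus strand; Havcr2, chr11:46454935-46481255, plus strand) of mm10. In progenitor-gated barcodes, Tcf7 stood at 189 CPM in the NK-depleted library and 192 CPM in the control library. Slamf6 stood at 128 CPM in the NK-depleted and 141 CPM in the control library, and Pdcd1 at 163 CPM in the NK-depleted and 198 CPM in the control library. In Pdcd1+Havcr2+ barcodes, Pdcd1 was higher, at 263 CPM in the NK-depleted and 283 CPM in the control library.

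Against Pdcd1+Havcr2+ barcodes, progenitor-gated barcodes were high in genes of lymph node entry, egress and quiescence, and low in granzyme B, perforin, activation-induced cytokines and cell cycle genes. Of 2942 genes at 50 CPM or more in a class in each library, 126 were at least 1.5-fold higher in both libraries, 4.28% of those measured, and 213 were at least 1.5-fold lower, 7.24%. The gate genes were not counted. Each of these genes had a ratio whose interval excluded 1 in each library. For gene lists, a gene was counted at 10 CPM or more, 1.5-fold and an interval without 1 in both libraries. By that rule 4.63% of 7535 measured genes were higher and 6.44% lower.

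Egress and quiescence genes gave large ratios. S1pr1, the receptor by which T cells leave tissue, stood at 92.4 CPM in progenitor-gated and 11.3 CPM in Pdcd1+Havcr2+ barcodes of the NK-depleted library, 8.20-fold higher (7.14 to 9.40). In the control library S1pr1 stood at 87.4 CPM in progenitor-gated and 13.6 CPM in Pdcd1+Havcr2+ barcodes, 6.45-fold higher (5.76 to 7.21). Its transcription factor Klf2 was 4.72-fold higher in the NK-depleted and 3.63-fold higher in the control library, and the related Klf3 was 6.68-fold higher in the NK-depleted and 4.73-fold higher in the control library. Dapl1, a gene of naive and memory CD8 T cells, stood at 138 CPM in progenitor-gated and 15.5 CPM in Pdcd1+Havcr2+ barcodes of the NK-depleted library, and at 119 CPM in progenitor-gated and 16.7 CPM in Pdcd1+Havcr2+ barcodes of the control library. The chemokine receptors Ccr7 and Cxcr3 were also higher, Ccr7 by 5.52-fold in the NK-depleted and 2.56-fold in the control library, and Cxcr3 by 3.48-fold in the NK-depleted and 2.95-fold in the control library. The naive and central memory list had 11 of 17 measured genes higher and 0 lower, and its median log2 ratios were 1.29 in the NK-depleted and 1.26 in the control library. The medians over all 7535 measured genes were -0.05 in the NK-depleted and -0.01 in the control library.

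Transcription factors of the stem-like programme were high with them. Of 14 measured, 10 were higher and 0 lower. Lef1, the partner of TCF-1, stood at 96.2 CPM in progenitor-gated and 39.2 CPM in Pdcd1+Havcr2+ barcodes of the NK-depleted library, and at 82.9 CPM in progenitor-gated and 34.7 CPM in Pdcd1+Havcr2+ barcodes of the control library. Bach2, a repressor of effector genes, was 3.39-fold higher (2.80 to 4.08) in the NK-depleted and 2.50-fold higher (2.19 to 2.84) in the control library. Id3, which marks progenitor and memory cells, was 5.13-fold higher (3.46 to 7.42) in the NK-depleted and 6.35-fold higher (4.63 to 8.69) in the control library. Id3 was nonetheless sparse, with a UMI in 24 NK-depleted and 47 control progenitor-gated barcodes. Eomes, a T-box factor of memory and exhausted cells, was 2.52-fold higher in the NK-depleted and 1.93-fold higher in the control library.

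The label was checked against 20 further markers of progenitor exhausted cells, of which 14 reached 10 CPM. Lef1, Id3, Tnfsf8, Crtam and Gpr183 were higher than in Pdcd1+Havcr2+ barcodes, Tnfrsf4 was lower, and 8 were counted in neither direction. Cxcr5, a follicular homing receptor used to sort progenitor cells in chronic infection, was near 0, with a UMI in 13 NK-depleted and 10 control progenitor-gated barcodes. Tox2 had 0 UMIs in the NK-depleted library and 3 in the control library, and Bcl6 had 7 in the NK-depleted and 28 in the control library. Tox, the factor that sustains exhausted cells, was 1.48-fold higher (1.22 to 1.78) than in Pdcd1+Havcr2+ barcodes of the NK-depleted library and 1.36-fold higher (1.24 to 1.49) in the control library. Xcl1, the chemokine for cross-presenting dendritic cells, was 1.51-fold higher in the NK-depleted and 1.47-fold higher in the control library. Il7r, the interleukin-7 receptor, stood at 293 CPM in progenitor-gated and 284 CPM in Pdcd1+Havcr2+ barcodes of the NK-depleted library, and at 322 CPM in progenitor-gated and 284 CPM in Pdcd1+Havcr2+ barcodes of the control library. Relative to Pdcd1+Havcr2+ barcodes, they thus carried part of the marker set, and genes of the naive and central memory list led their ratios. Relative to Pdcd1- Slamf6+Tcf7+ barcodes, 1 of 14 measured markers, Tnfrsf4, was higher, Id3 and Lef1 were lower, and 11 were counted in neither direction. The median log2 ratios of the markers there were -0.11 in the NK-depleted and 0.03 in the control library.

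Exhaustion and effector genes were low. Of 18 measured terminal exhaustion genes, 12 were lower and 1, Cd7, was higher, with median log2 ratios of -1.17 in the NK-depleted and -1.05 in the control library. Entpd1, the ectoenzyme CD39 of terminally exhausted cells, stood at 25.2 CPM in progenitor-gated and 96.6 CPM in Pdcd1+Havcr2+ barcodes of the NK-depleted library, 3.83-fold lower (3.07 to 4.84). In the control library Entpd1 stood at 24.4 CPM in progenitor-gated and 87.9 CPM in Pdcd1+Havcr2+ barcodes. The inhibitory receptor gene Lag3 was 2.52-fold lower in the NK-depleted and 2.11-fold lower in the control library. The inhibitory receptor gene Ctla4 was 1.70-fold lower in the NK-depleted but only 1.42-fold lower in the control library, and so was not counted. Icos, a costimulatory receptor, was 1.98-fold lower in the NK-depleted and 2.17-fold lower in the control library. Cd28, the receptor on which responses to PD-1 blockade depend, was within 1.07-fold of level in both libraries.

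Among cytotoxic granule genes, 10 of 18 were lower and 1, Gzmm, was higher. Gzmb, which encodes granzyme B, stood at 944 CPM in progenitor-gated and 3835 CPM in Pdcd1+Havcr2+ barcodes of the NK-depleted library, and at 876 CPM in progenitor-gated and 2603 CPM in Pdcd1+Havcr2+ barcodes of the control library. It had a UMI in 93.1% of NK-depleted and 77.1% of control progenitor-gated barcodes. MHC class II barcodes had one in 77.8% of the NK-depleted and 34.1% of the control library, and after thinning the NK-depleted shares were 80.5% of progenitor-gated and 78.6% of MHC class II barcodes. The share of NK-depleted barcodes with a Gzmb UMI is therefore not read as expression. Prf1, which encodes perforin, was 6.93-fold lower in the NK-depleted and 6.48-fold lower in the control library. Granzymes C, D, E and F are 4 of the 10 lower genes, but their folds are not given. Gzmf stood at 90.8 CPM in NK-depleted progenitor-gated and 116 CPM in NK-depleted MHC class II barcodes, and Gzmc at 5.86 CPM in control progenitor-gated and 48.1 CPM in control MHC class II barcodes. In the control library, a single progenitor-gated barcode for each gene held 75% of the Gzmd, 53.3% of the Gzme, 44.4% of the Gzmc and 30.1% of the Gzmf UMIs, and near-identical copies can share reads. Of the cytokines, Ifng was 5.02-fold lower in the NK-depleted and 6.29-fold lower in the control library. The chemokine Ccl3 was 8.93-fold lower in the NK-depleted and 21.3-fold lower in the control library. Ccl5, a chemokine of memory and effector CD8 T cells, went the other way, at 1941 CPM in progenitor-gated and 1127 CPM in Pdcd1+Havcr2+ barcodes of the NK-depleted library, and at 4158 CPM in progenitor-gated and 2063 CPM in Pdcd1+Havcr2+ barcodes of the control library. Itga4, the integrin subunit alpha 4, was likewise 2.66-fold higher in the NK-depleted and 2.22-fold higher in the control library.

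Proliferation genes were lower yet present. Of 25 measured genes of G2 and M phase, 24 were lower, and of 24 S phase genes 15 were lower, with 0 higher in each list. Mki67, a proliferation marker, stood at 206 CPM in progenitor-gated and 463 CPM in Pdcd1+Havcr2+ barcodes of the NK-depleted library, and at 192 CPM in progenitor-gated and 345 CPM in Pdcd1+Havcr2+ barcodes of the control library. Glycolysis and hypoxia genes were also lower, 11 of 19, and of 21 oxidative phosphorylation genes none passed the rule in either direction. Type I interferon response genes were higher, 10 of 27 with 0 lower, and so were 7 of 20 interferon gamma response genes. Among early T cell receptor response genes 5 of 19 were higher, and these include Fos, Fosb and Jun, which enzymatic tissue digestion also induces. The part of digestion in that difference was not tested.

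Beside the Pdcd1- Slamf6+Tcf7+ class the picture turned. Of 2714 genes measured, 69 were higher in progenitor-gated barcodes, 2.54%, and 12 were lower, 0.442%. The median log2 ratio of all 7368 genes at 10 CPM was 0.13 in the NK-depleted and 0.11 in the control library, and under TMM or median-of-ratios scaling, which remove such a shift, the counts were 44 higher and 26 lower. Lag3 stood at 160 CPM in progenitor-gated and 32.4 CPM in Pdcd1- Slamf6+Tcf7+ barcodes of the NK-depleted library, 4.94-fold higher (4.12 to 5.96). In the control library Lag3 stood at 273 CPM in progenitor-gated and 58.3 CPM in Pdcd1- Slamf6+Tcf7+ barcodes, 4.69-fold higher (4.11 to 5.37). Rgs16, a regulator of G protein signalling induced by activation, was 3.53-fold higher in the NK-depleted and 5.11-fold higher in the control library. Tnfrsf9, the costimulatory receptor 4-1BB, was 2.61-fold higher in the NK-depleted and 3.65-fold higher in the control library. Ctla4 was 2.10-fold higher in the NK-depleted and 1.99-fold higher in the control library, and the transcription factors Irf8, Bhlhe40 and Hif1a were between 2.26-fold and 2.79-fold higher in each library. In the terminal exhaustion list 10 of 17 genes were higher and 0 lower, where 3.31% of the 7368 genes were higher by the same rule.

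Egress and quiescence genes were now the low ones. Klf2 stood at 199.7 CPM in progenitor-gated and 377 CPM in Pdcd1- Slamf6+Tcf7+ barcodes of the NK-depleted library, and at 165 CPM in progenitor-gated and 502 CPM in Pdcd1- Slamf6+Tcf7+ barcodes of the control library. Lef1 was 1.76-fold lower in the NK-depleted and 2.42-fold lower in the control library, and Id3 stood at 11.5 CPM in progenitor-gated and 23.0 CPM in Pdcd1- Slamf6+Tcf7+ barcodes of the NK-depleted library. Of 18 naive and central memory genes 7 were lower and 0 higher, where 0.584% of the 7368 genes were lower. For Klf2, S1pr1, Klf3, Lef1, Lag3, Ctla4, Icos, Entpd1, Gzmb and Mki67, progenitor-gated barcodes therefore lay between the other classes in both libraries. The part of undetected doublets in that order was not tested. Tox, Ccl5 and Itga4 did not follow that order, since among these classes each was highest in progenitor-gated barcodes of both libraries.

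**Figure D2:**
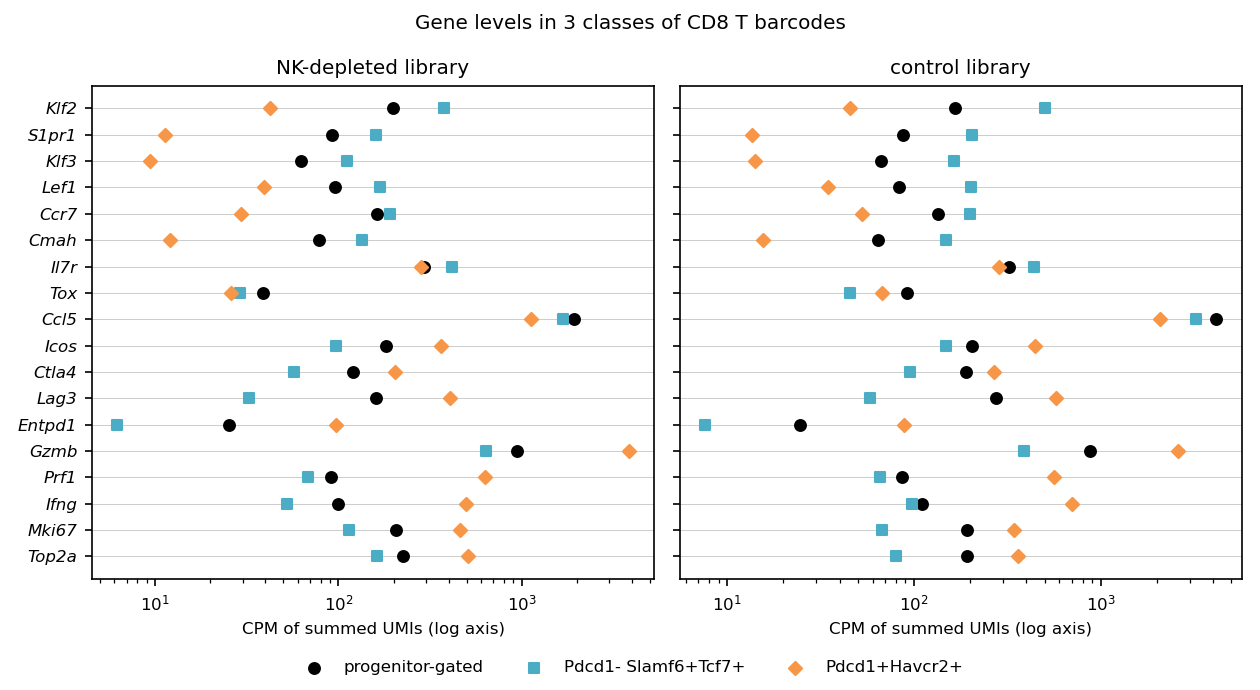
CPM of summed UMIs (log axis) of 18 genes in progenitor-gated (black circles), Pdcd1- Slamf6+Tcf7+ (blue squares) and Pdcd1+Havcr2+ barcodes (orange diamonds), NK-depleted library left and control library right, 1 value per class and library. Klf2, S1pr1, Klf3 and Lef1 at the top put progenitor-gated barcodes between the other classes, as do Lag3 and Gzmb, and Ccl5 is highest in progenitor-gated barcodes at 1941 CPM in the NK-depleted and 4158 CPM in the control library.

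**Figure D3:**
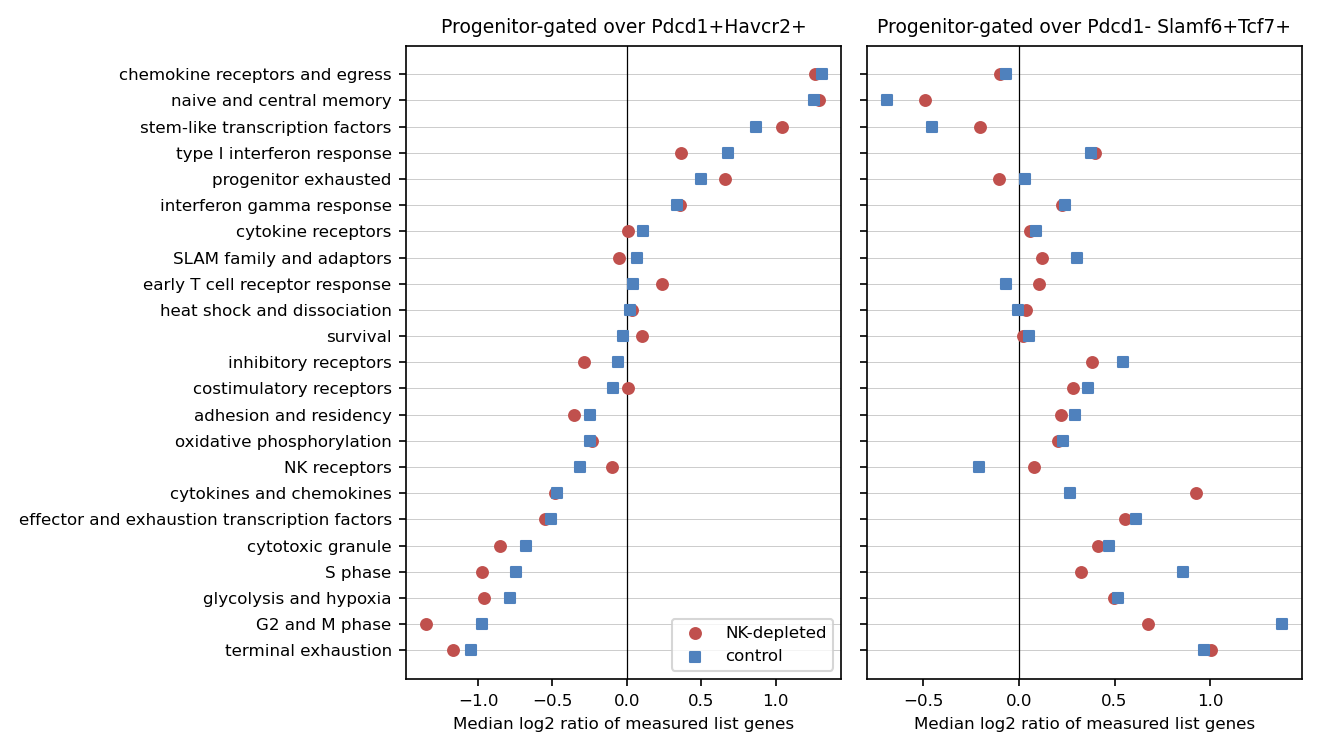
Median log2 ratio of the measured genes of each list, progenitor-gated barcodes over Pdcd1+Havcr2+ barcodes (left) and over Pdcd1- Slamf6+Tcf7+ barcodes (right), red circles for the NK-depleted and blue squares for the control library. The naive and central memory median is 1.29 in the NK-depleted and 1.26 in the control library on the left and below 0 on the right, and the terminal exhaustion median has the opposite signs.

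Between the libraries, progenitor-gated barcodes of NK-depleted tumours were high in Ly49 receptor genes, Ikzf2, Bcl2 and the TNF family genes Tnfrsf9 and Tnfsf8, and low in Ccl5, Tox, Itga4, Gzmk, Lag3 and interferon response genes. Of 2986 genes at 50 CPM or more in a library, 27 reached a ratio of 1.5 after NK depletion, 0.904%, and 93 were lower by as much, 3.11%. The interval of each excluded 1. For comparison, 21 genes were higher, 0.696%, and 43 lower, 1.42%, among 3018 in Pdcd1+Havcr2+ barcodes, and fewer UMIs stand behind the progenitor-gated ratios. Marker lists of other cell types also differed. In progenitor-gated barcodes the gamma delta T cell list summed to 84.7 CPM in the NK-depleted and 22.8 CPM in the control library, and the NK cell list, led by Gzma, to 395 CPM in the NK-depleted and 317 CPM in the control library. The dendritic cell list summed to 271 CPM in the NK-depleted and 159.6 CPM in the control library, and the plasmacytoid dendritic cell list, mostly Bst2, which interferon also induces, to 510.0 CPM in the NK-depleted and 936 CPM in the control library. Their part in the differences below was not tested beyond the values given without barcodes of other cell types. By the list rule 2.48% of 7753 genes were higher and 4.95% lower in the NK-depleted progenitor-gated barcodes.

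Genes of the stem-like programme were close to level. Eomes was the 1 of 14 stem-like transcription factors counted as higher, and 0 were lower. Their median log2 ratio was -0.01. Lef1 stood at 96.2 CPM in the NK-depleted and 82.9 CPM in the control library, Bach2 was 1.16-fold lower (0.944 to 1.44), Myb stood at 41.5 CPM in both libraries, and Id3 stood at 11.5 CPM in the NK-depleted and 11.6 CPM in the control library.

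Exhaustion genes differed more. Tox stood at 38.7 CPM in the NK-depleted and 91.8 CPM in the control library, 2.38-fold lower (1.95 to 2.92). The same gene stood at 26.0 CPM in NK-depleted and 67.5 CPM in control Pdcd1+Havcr2+ barcodes. After thinning, Tox had a UMI in 17.8% (12.4 to 24.3) of NK-depleted and 36.8% (31.6 to 42.1) of control progenitor-gated barcodes, and in 0% of MHC class II barcodes of either library. That 0% rests on at most 18 NK-depleted and 41 control barcodes, too few to place the NK-depleted share above background. Lag3 was 1.71-fold lower (1.54 to 1.89) and Ctla4 was 1.58-fold lower (1.41 to 1.78). Cxcr6, a chemokine receptor of tissue-resident cells, stood at 128 CPM in the NK-depleted and 230 CPM in the control library. In Pdcd1+Havcr2+ barcodes Lag3 stood at 404 CPM in the NK-depleted and 576 CPM in the control library. Cxcr6 stood at 414 CPM in NK-depleted and 528 CPM in control Pdcd1+Havcr2+ barcodes. Of 18 terminal exhaustion genes 5 were lower and 1, Tnfrsf9, was higher. Their median log2 ratio was -0.37 in progenitor-gated, -0.38 in Pdcd1+Havcr2+ and -0.42 in all CD8 T barcodes, so the shift was not particular to progenitor-gated barcodes. Tnfrsf9 stood at 183 CPM in the NK-depleted and 97.4 CPM in the control library, 1.88-fold higher (1.68 to 2.12), while in Pdcd1+Havcr2+ barcodes it stood at 382 CPM in the NK-depleted and 399 CPM in the control library. Tnfsf8, the ligand of CD30, stood at 57.5 CPM in the NK-depleted and 31.4 CPM in the control library, 1.83-fold higher (1.49 to 2.25).

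Cytotoxic, cytokine and adhesion genes did not move as groups. Of 16 measured cytotoxic granule genes 3, Gzmc, Gzmf and Gzmm, were higher and 1, Gzmk, was lower. Of 13 cytokine and chemokine genes 2, Tnf and Tnfsf8, were higher and 2, Ccl5 and Tnfsf14, were lower. Of 13 adhesion and residency genes 3, Itga1, Itga4 and Cxcr6, were lower and 0 were higher. Ccl5 stood at 1941 CPM in the NK-depleted and 4158 CPM in the control library, 2.14-fold lower (2.08 to 2.20). Itga4 stood at 143 CPM in the NK-depleted and 287 CPM in the control library, 2.01-fold lower (1.81 to 2.24). MHC class II barcodes held more Itga4, at 478 CPM in the NK-depleted and 718 CPM in the control library. The part of RNA from such cells in the Itga4 difference was not tested. Gzmk, a granzyme of memory-like and early exhausted cells, stood at 27.2 CPM in the NK-depleted and 77.2 CPM in the control library, 2.84-fold lower (2.25 to 3.62). Ccl5, Itga4 and Gzmk were also lower after NK depletion in Pdcd1+Havcr2+ barcodes. There Ccl5 stood at 1127 CPM in the NK-depleted and 2063 CPM in the control library. Itga4 stood at 53.6 CPM and 129 CPM there, and Gzmk at 42.1 CPM and 63.4 CPM, in the same order. Car2, a carbonic anhydrase, was 7.21-fold lower (4.81 to 11.3), Nrp1, the receptor neuropilin 1, was 2.72-fold lower (2.10 to 3.57), and Nrgn was 2.70-fold lower (2.17 to 3.40). Gzmb and Prf1 were near level, Gzmb at 944 CPM in the NK-depleted and 876 CPM in the control library, although in Pdcd1+Havcr2+ barcodes Gzmb stood at 3835 CPM in the NK-depleted and 2603 CPM in the control library. Gzmf, at 90.8 CPM in the NK-depleted and 35.2 CPM in the control library, was among the higher genes. Gzmf had a UMI in 58.5% of NK-depleted and 9.46% of control progenitor-gated barcodes, and in 72.2% of NK-depleted and 4.88% of control MHC class II barcodes. Its share in the NK-depleted library was therefore not above background, and its level is not read as expression. Gzmc stood at 49.9 CPM in the NK-depleted and 5.86 CPM in the control progenitor-gated barcodes. In MHC class II barcodes, Gzmc stood at 24.5 CPM in the NK-depleted and 48.1 CPM in the control library. Those values rest on only 163326 NK-depleted and 291043 control UMIs of all genes. Gzmc thus lay above MHC class II barcodes in the NK-depleted library and below them in the control library. Its difference between the libraries is therefore not read as expression.

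Ccr9, a gut homing receptor that plasmacytoid dendritic cells also express, was 6.23-fold lower in the NK-depleted library, but a single barcode held 81.5% of its UMIs in the NK-depleted and 41.8% in the control library. Without barcodes holding 2 or more UMIs of defining genes of other cell types, its log2 ratio was -1.38 in place of -2.64. Cd74 and Cst3, which antigen-presenting cells express strongly, were counted as higher. For Cd74, 1 barcode held 90.9% of the UMIs in the NK-depleted and 54.8% in the control library. For Cst3, 1 barcode held 37.3% of the UMIs in the NK-depleted and 27.8% in the control library. Without those barcodes of other cell types, the log2 ratio of Cd74 was -2.15 in place of 1.05 and that of Cst3 was 0.23 in place of 0.95, so neither is read as a difference of progenitor-gated barcodes.

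Type I interferon response genes were lower as a group. The list had 12 of 27 measured genes lower and 0 higher. Its median log2 ratio was -0.57, where the median of all 7753 genes was -0.07. The same genes had medians of -0.29 in Pdcd1+Havcr2+ barcodes and -0.49 in all CD8 T barcodes. Ifit3, which encodes an interferon-induced antiviral protein, stood at 336 CPM in the NK-depleted and 565 CPM in the control library, 1.68-fold lower (1.57 to 1.81). Slfn5, a Schlafen family gene, stood at 143 CPM in the NK-depleted and 321 CPM in the control library, 2.23-fold lower (2.02 to 2.48). Oas1a, an oligoadenylate synthetase, was 2.20-fold lower (1.72 to 2.85), and Ube2l6, the conjugating enzyme of the ubiquitin-like protein ISG15, was 3.89-fold lower (2.82 to 5.51). Among interferon gamma response genes 3 of 20, Gbp2, Gbp5 and Iigp1, were lower and 0 were higher.

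Interferon-stimulated genes are bound at their promoters by STAT and IRF factors through an element that holds paired GAAA letters. The promoters of Ifit3, Slfn5 and Oas1a are printed because these genes were lower together in NK-depleted progenitor-gated barcodes. They run from 250 bases before to 50 bases after the start, as RefSeq gives them on GRCm38.p6, each 5′ to 3′ on its gene's strand, and capitals mark matches to GAAANNGAAA on either strand, which may overlap. Ifit3 is chr19:34583279-34583578, plus strand, Slfn5 is chr11:82951852-82952151, plus strand, and Oas1a is chr5:120907476-120907775, minus strand.
Ifit3: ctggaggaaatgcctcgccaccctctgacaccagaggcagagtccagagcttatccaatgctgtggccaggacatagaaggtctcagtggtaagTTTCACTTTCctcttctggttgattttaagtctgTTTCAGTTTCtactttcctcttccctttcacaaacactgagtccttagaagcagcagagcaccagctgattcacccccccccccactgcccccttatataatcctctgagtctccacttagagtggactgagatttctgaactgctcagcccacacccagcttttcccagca
Slfn5: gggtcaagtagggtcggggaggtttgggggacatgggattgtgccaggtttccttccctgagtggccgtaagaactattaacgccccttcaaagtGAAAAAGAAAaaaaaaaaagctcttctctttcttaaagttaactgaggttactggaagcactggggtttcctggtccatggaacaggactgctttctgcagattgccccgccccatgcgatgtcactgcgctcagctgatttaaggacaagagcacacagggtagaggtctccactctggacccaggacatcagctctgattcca
Oas1a: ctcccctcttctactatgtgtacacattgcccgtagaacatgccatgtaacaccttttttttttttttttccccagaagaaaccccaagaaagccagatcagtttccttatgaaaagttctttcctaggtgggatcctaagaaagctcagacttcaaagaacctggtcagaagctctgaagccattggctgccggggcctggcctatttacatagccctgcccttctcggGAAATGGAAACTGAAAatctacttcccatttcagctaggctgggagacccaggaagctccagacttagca
Of the 12 lower genes, 11 had a promoter in the table, and 9 of these held the motif, 81.8%. Of all 27 measured genes of the list, 21 had a promoter and 14 of these held it, 66.7%. Of 27025 genes in the table, 3.99% held it. A match is a description of these letters and not a bound site.

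Ly49 receptor genes were detected in more of the progenitor-gated barcodes after NK depletion. These receptors, encoded by the Klra genes, bind MHC class I on NK cells and on subsets of memory and regulatory CD8 T cells. Klra7 stood at 56.2 CPM in the NK-depleted and 21.7 CPM in the control library, 2.60-fold higher (2.06 to 3.28), and Klra6 at 29.7 CPM in the NK-depleted and 8.14 CPM in the control library. Of 12 measured NK receptor genes 6 were higher, 5 of them Klra genes, whose near-identical copies can share reads, and 1, Tyrobp, was lower. A UMI of any Klra gene was present in 33.5% (26.8 to 40.7) of NK-depleted and 13.2% (9.81 to 17.2) of control progenitor-gated barcodes. After thinning it was present in 29.3% of NK-depleted and 8.53% of control ones. All CD8 T barcodes differed the same way, with no Klra UMI in 6233 of 8164 NK-depleted and 6156 of 6901 control barcodes. The NK receptor list had a median log2 ratio of 0.59 in progenitor-gated, -0.18 in Pdcd1+Havcr2+ and 0.28 in all CD8 T barcodes. Thinned MHC class II barcodes had a Klra UMI in 21.4% of the NK-depleted and 24.0% of the control library. The summed share in control progenitor-gated barcodes lay below theirs. Whether the MHC class II share is free RNA or their own Klra transcripts was not tested. The size of the progenitor-gated share is therefore not read as expression. Klra7 stood at 12.2 CPM in NK-depleted and 6.87 CPM in control MHC class II barcodes. Klra6 was cleaner, with a UMI in 15.4% (10.6 to 21.4) of NK-depleted and 5.73% (3.54 to 8.71) of control progenitor-gated barcodes, and in 0 of 18 NK-depleted and 0 of 41 control MHC class II barcodes. The exact upper bound of those zero counts is 18.5% in the NK-depleted and 8.60% in the control library. Of the 8 NK cell markers, 7 were detected in NK-depleted progenitor-gated barcodes, and Ncr1, a defining NK cell gene, was at 0. In control progenitor-gated barcodes all 8 were detected.

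Barcodes with a Klra UMI were high in Ikzf2, which encodes Helios, a transcription factor of regulatory lymphocytes. In the NK-depleted library Ikzf2 stood at 487 CPM in the 63 progenitor-gated barcodes with a Klra UMI and 127 CPM in the 125 without one. In the control library it stood at 413 CPM in the 46 with a Klra UMI and 74.7 CPM in the 303 without one. Bcl2, a survival gene, stood at 652 CPM with and 386 CPM without a Klra UMI in the NK-depleted library, and at 348 CPM with and 270.3 CPM without one in the control library. Barcodes with a Klra UMI were deeper, with medians of 18113 UMIs in the NK-depleted and 25241 UMIs in the control library, and the part of depth was not tested. Over all progenitor-gated barcodes Ikzf2 stood at 276 CPM in the NK-depleted and 143 CPM in the control library, 1.93-fold higher (1.76 to 2.13), and Bcl2 at 496 CPM in the NK-depleted and 286 CPM in the control library, 1.73-fold higher (1.62 to 1.86). Among barcodes without a Klra UMI the log2 ratio was 0.76 for Ikzf2 in place of 0.95 and 0.51 for Bcl2 in place of 0.79. Fcer1g, a signalling adaptor of NK cell receptors, had a log2 ratio of 0.96 over all and -0.22 without Klra barcodes.

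**Figure D4:**
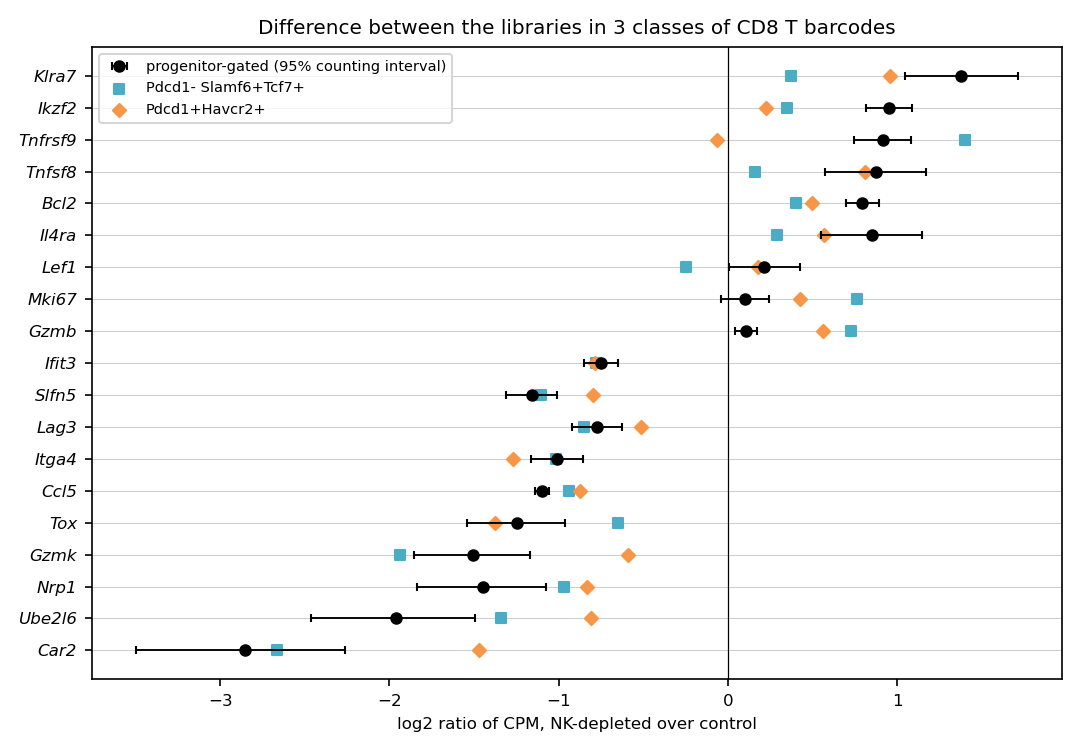
log2 ratio of CPM, NK-depleted over control, for 19 genes in progenitor-gated barcodes (black circles with exact 95% counting intervals), Pdcd1- Slamf6+Tcf7+ barcodes (blue squares) and Pdcd1+Havcr2+ barcodes (orange diamonds). Klra7, Ikzf2 and Tnfrsf9 lie right of 0 and Ccl5, Tox and Car2 left of it in progenitor-gated barcodes, and Lef1 lies near 0.

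Tcf7 was a gate gene, so values by its UMIs are a description only. Lef1 stood at 80.9, 88.3 and 106 CPM in NK-depleted barcodes with 1, 2 and 3 or more Tcf7 UMIs, and at 49.7, 66.2 and 103 CPM in control ones. Myb, a factor that maintains stem-like cells, stood at 19.0, 14.9 and 62.6 CPM in NK-depleted barcodes in that order of Tcf7 UMIs, and at 16.6, 31.6 and 56.0 CPM in control ones. Lag3 stood at 281, 164 and 113 CPM in NK-depleted barcodes and at 334, 272 and 246 CPM in control ones. Lef1 and Lag3 thus kept 1 order over the strata in both libraries, and Myb did so in the control library but not in the NK-depleted library. Tox kept no order in the NK-depleted library, at 42.8, 31.1 and 40.7 CPM. Median depth was 10732, 14179 and 16798 UMIs in NK-depleted and 12051, 12898 and 17982 UMIs in control barcodes, and its part in these differences was not tested.

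**Figure D5:**
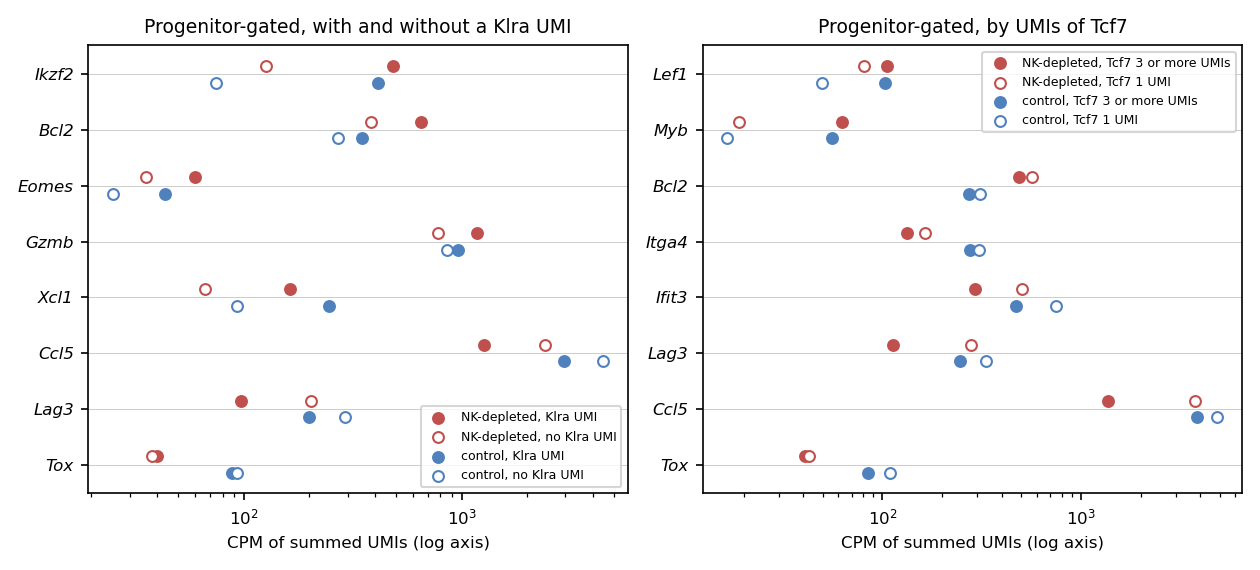
CPM of summed UMIs (log axis) in progenitor-gated barcodes with (filled) and without (open) a UMI of a Klra gene, left, and with 3 or more (filled) or 1 (open) UMI of Tcf7, right, NK-depleted in red and control in blue, 1 value per subset and library. Ikzf2 is higher with a Klra UMI in both libraries, at 487 CPM against 127 CPM in the NK-depleted library, and Lag3 is lower with 3 or more Tcf7 UMIs in both.

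Cell cycle genes were close to level between the libraries in progenitor-gated barcodes. The S phase list had a median log2 ratio of -0.01 and the G2 and M phase list one of -0.08. In Pdcd1+Havcr2+ barcodes the medians of the same genes were 0.29 for S phase and 0.32 for G2 and M phase. Mki67 stood at 206 CPM in the NK-depleted and 192 CPM in the control library. A UMI of Mki67 or Top2a was present in 60.1% (52.7 to 67.2) of NK-depleted and 49.9% (44.5 to 55.2) of control progenitor-gated barcodes, and in 11.1% of NK-depleted and 9.76% of control MHC class II barcodes. The share and the CPM thus differ in size, and no order is read from them.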

How the data were processed

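Single-cell 5' gene expression libraries (10x Genomics) of sorted tumour CD8 T cells were used, 1 NK-depleted and 1 control. The authors deposited counts, UMIs per gene and barcode over 32285 genes, which were not normalized. Per the file headers, Cell Ranger 6.1.2 wrote these counts. Per the submitters' processing notes, mm10 and Seurat 4.0.6 were used. The matrices carry no cell annotation. The members and gene lists were chosen with earlier results of these data known.

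Barcodes with at least 500 genes and under 10% mitochondrial UMIs were kept, 8353 NK-depleted and 7163 control. Of barcodes meeting the UMI criteria for Pdcd1, Slamf6, Tcf7 and Havcr2, 4 NK-depleted and 1 control failed another filter. Counts were summed over each class, holding 3129129 NK-depleted and 6141616 control UMIs of progenitor-gated barcodes, and scaled to CPM. Ratios carry exact conditional binomial intervals and shares Clopper-Pearson intervals, with 95% confidence. Thinning drew 5400 UMIs per barcode and left out 14 NK-depleted and 9 control progenitor-gated barcodes. Named genes are the 10 largest ratios per direction that kept their sign under TMM and median-of-ratios scaling, up to 4 genes per list and a fixed set, and others are named as members of a list's count. Coordinates are GENCODE M21, matched by Ensembl ID. Scrublet was run in scanpy 1.11.5, and numpy 2.4.6 and scipy 1.17.1 were used. The ratio code was tested on simulated data with Poisson counting error only, which hold no variation between barcodes. A result that needs a withheld gene is not reported here.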

Additional observations from a re-analysis of the deposited data

How the results depend on the processing

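No paired analysis was possible because each group has 1 library. Leaving out a replicate was not possible for the same reason. Of 1654 list medians recomputed under alternatives, 51 moved by over the tolerance and 2 reversed, and of 6683 values of named genes, 1238 moved and 6 reversed. The cause of these shifts was not tested, except that thinning, leaving out barcodes and lower minimums leave fewer UMIs behind each ratio.

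Against Pdcd1+Havcr2+ barcodes, the 126 higher and 213 lower genes became 256 and 366 at a minimum of 20 CPM and 1381 and 890 at 10 UMIs. Against Pdcd1- Slamf6+Tcf7+ barcodes, the 69 higher and 12 lower genes became 44 and 26 under TMM and 44 and 26 under median-of-ratios scaling, 105 and 21 without Klra barcodes, 159 and 28 at 20 CPM, and 588 and 230 at 10 UMIs. Between the libraries, the 27 higher and 93 lower genes became 55 and 219 when thinned, 55 and 245 without Mki67 or Top2a barcodes, 101 and 234 at 20 CPM, and 773 and 1196 at 10 UMIs. Leaving out barcodes with UMIs of other cell types, or those above the 95th percentile of UMIs, were chosen after seeing the data and kept each of these counts within 1.5 times.

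The progenitor-gated share was 0.715% of NK-depleted and 1.90% of control barcodes when thinned (ratio 0.377), 1.67% and 3.42% with 2 Tcf7 UMIs, 2.82% and 5.74% allowing 1 Havcr2 UMI, and 3.85% and 7.50% of Pdcd1+ barcodes. Over all alternatives the ratio of NK-depleted to control ran between 0.377 and 0.514. Each alternative kept Slamf6 in the gate, so the ratio without that gene was not tested. Barcodes missing only Slamf6 numbered 316 in the NK-depleted and 268 in the control library.

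Reversed log2 ratios between the libraries were Cd74 at -3.11 without Mki67 or Top2a barcodes, -1.02 with 2 Tcf7 UMIs and -2.15 without barcodes of other cell types. Cst3 was -1.08 and Fcer1g -0.10 without Mki67 or Top2a barcodes, and Fcer1g was -0.22 without Klra barcodes. The NK receptor median was -0.16 without Klra barcodes. That alternative leaves the Klra genes without UMIs, so its median covers only the other genes of the list. The G2 and M phase median against Pdcd1- Slamf6+Tcf7+ barcodes of the NK-depleted library was -0.074 without Mki67 or Top2a barcodes.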
